A study of Mus musculus with 12 samples.

Results

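Hearts of mice whose cardiomyocytes lack Cited4 were compared with hearts of Flox mice under the sedentary label, in 6 of the 12 RNA libraries of the series. The members were chosen by label alone: all 3 KO and all 3 Flox libraries with the sedentary word. Flox mice were CITED4 flox/flox, with loxP sites on both alleles and no cre. KO mice came from crossing them with aMHC-cre mice, in which the alpha myosin heavy chain promoter drives cre in cardiomyocytes, so other heart cells keep the gene. The samples hold no animals with cre and an intact Cited4, so the deletion and the transgene cannot be told apart. The sedentary mice are the counterpart of mice given voluntary wheel running for 8 weeks; the labels give no age or strain. They name whole heart as the tissue and do not say which animal gave which library, so a p-value here sets a difference against the scatter of the libraries only, which may be technical. A code letter in the titles reads the other way from the treatment word (E beside sedentary, S beside exercise), and if the letter were right this would be the comparison of exercised mice.

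Cited4 encodes a small co-regulator of transcription that binds the acetyltransferases CBP and p300 and has no DNA-binding domain of its own. In the mouse heart its transcript is known to rise with exercise training, and the transcription factor C/EBPβ is known to repress it. The adult heart makes most of its ATP by oxidising fatty acids in mitochondria. Fat cells store lipid instead, under the control of C/EBPα and PPARγ, and lie on the outer surface of the heart and around the great vessels.

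Levels are given as CPM, counts scaled to a common library size with edgeR's TMM factors, with replicates 1, 2 and 3 in that order. Library totals ran from 17465401 to 20467260 counts, and 15226 genes had enough counts for the test. The 13 mitochondrially encoded genes took 21% to 24.4% of a library. The whole-heart label held for ventricular muscle in every library, with the ventricular myosin light chain Myl2 at 3554 CPM or more. Atrial muscle, fat and a class of vector sequence differed between libraries of the same group, and these 3 features are set out first because the results below move with them.

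Atrial RNA was unequal among the hearts. Nppa, the atrial natriuretic peptide, stood at 198.5, 214 and 2604 CPM in Flox and at 1001, 6195 and 13260 CPM in KO. The atrial myosin light chain Myl7 followed it, at 1.24, 0 and 516 CPM in Flox and 126, 1319 and 2514 CPM in KO. Myl7 was at or near 0 in Flox replicates 1 and 2, and Flox replicate 3 was above KO replicate 1 for both genes. Bmp10, a growth factor of right atrial muscle, separated the groups fully, at 0, 0 and 0.101 CPM in Flox against 131, 790 and 930 in KO. In counts that was 2 in all Flox libraries and 40731 in all KO libraries, a ratio of 17500 (exact 95% interval 4840 to 144000, counting error only). That interval leaves out the scatter between libraries. Against that scatter Bmp10 did not pass, at a log2 difference of 13.83 ± 5.39 (SE; edgeR, adjusted p = 0.321). Summed over 19 atrial markers, the level was 993 to 5220 CPM in Flox and 2460 to 23600 CPM in KO. The largest component of variation over all 12 libraries (30.6% of variance) placed KO replicates 2 and 3 at one end and Flox replicates 1 and 2 near the other. In whole tissue, fewer cells of a type and less RNA per cell cannot be told apart.

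**Figure D1:**
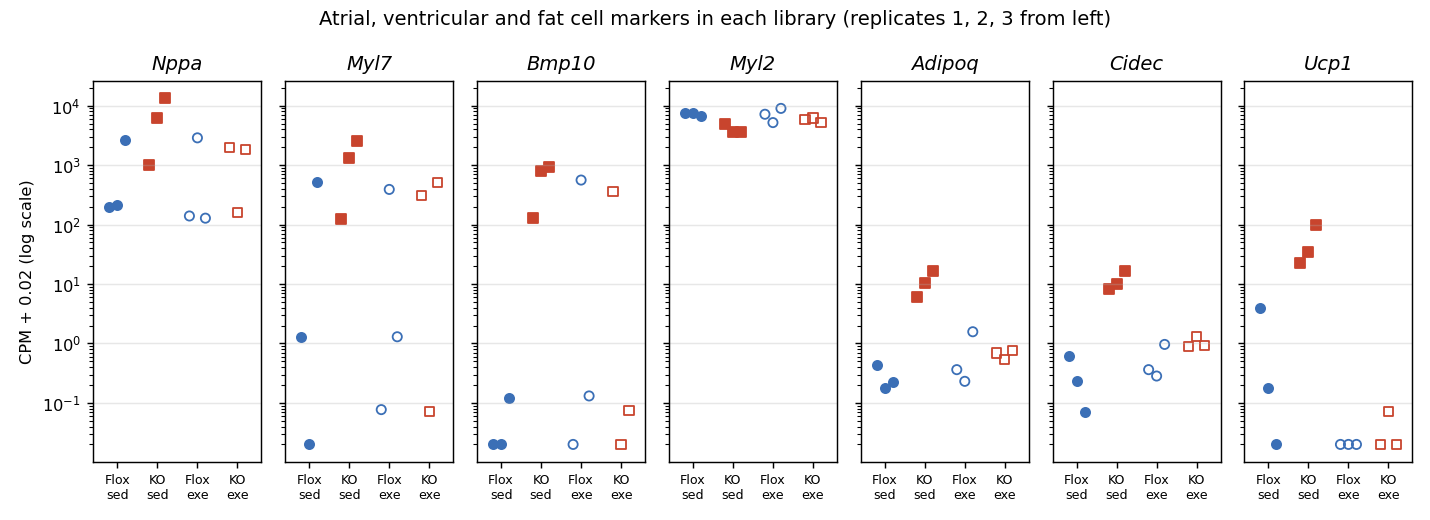
CPM (log scale, 0.02 added) of 3 atrial, 1 ventricular and 3 fat cell genes in each of the 12 libraries, with replicates 1, 2 and 3 from left in each group. Filled points are the 6 sedentary-label libraries, open points the exercise label; Bmp10, Adipoq, Cidec and Ucp1 are higher in all 3 filled KO squares than in all 3 filled Flox circles, and Nppa and Myl7 overlap.

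Cited4 transcripts were nearly gone from the KO hearts. The gene, on chromosome 4 at 120666572 to 120667820 (GRCm38), had 276, 192 and 295 counts in the Flox libraries and 5, 2 and 0 in the KO libraries. As CPM this was 16.3, 10.1 and 14.9 against 0.241, 0.0895 and 0. Scaled for depth, the KO libraries together kept 0.788% of what Flox had, with exact 95% bounds of 0.316 and 1.63 for counting error alone, and the log2 difference was -6.91 ± 0.55 (SE; edgeR, adjusted p = 0.000629). Its relatives and partners did not pass: Cited2, which competes for the same domain of CBP and p300, stood at 40.4, 37.9 and 36.9 CPM in Flox and 37.4, 27.3 and 32.4 in KO. Crebbp, the gene of CBP itself, stood at 39.5, 39.3 and 37.4 against 32.8, 32.9 and 32.7 CPM, without overlap and at a log2 difference of -0.24 ± 0.10 (edgeR, adjusted p = 0.319).

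Beside Cited4, 18 genes passed edgeR's quasi-likelihood test with Benjamini-Hochberg adjustment at 0.05. They include 5 white adipocyte markers, Adipoq, Cidec, Retn, Acvr1c and Cebpa, all of which rose. In all 19 genes passed (0.125% of those tested), 16 higher (0.105%) and 3 lower (0.0197%). At an unadjusted p under 0.05 there were 2057 genes (13.5%), 1233 higher (8.1%) and 824 lower (5.41%). The 3 KO libraries lay entirely above the 3 Flox libraries for 1591 genes (10.4%) and entirely below for 1207 (7.93%), together 2798 (18.4%). All 19 passing genes were among them. Over all 15226 genes tested, 7619 had a log2 difference above 0 and the median was 0.00. With libraries scaled by their totals alone, 100 genes passed and 96 of them were higher (96.0%, against 84.2% with TMM), since the median of all genes then moved by 0.18.

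**Figure D2:**
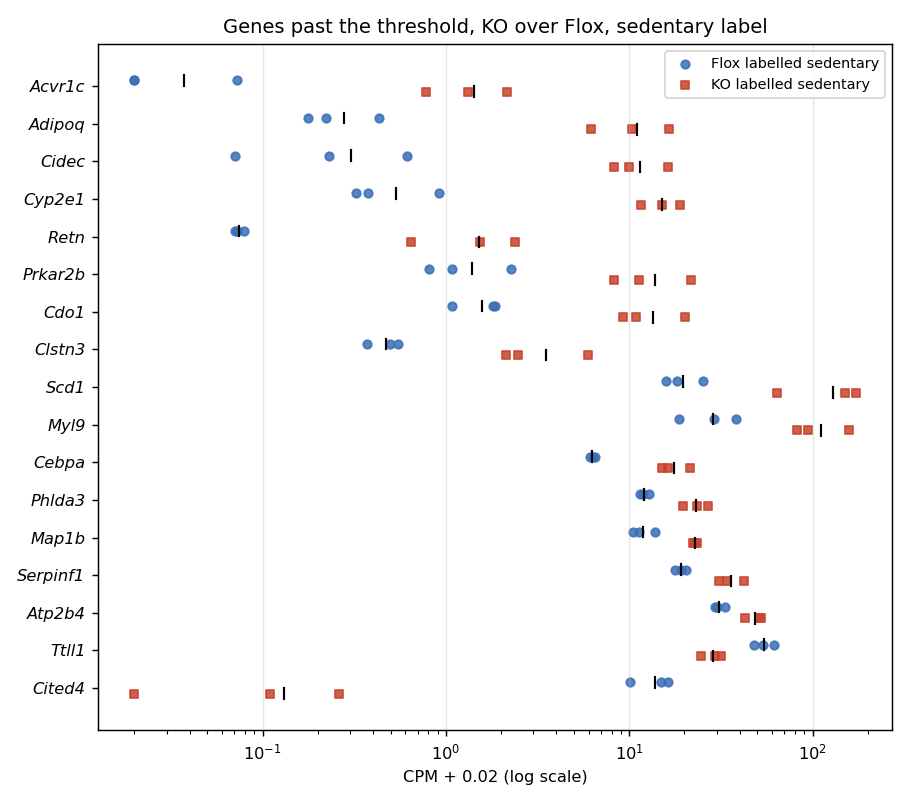
CPM (log scale, 0.02 added) of 17 of the 19 passing genes in each sedentary-label library, Flox as circles and KO as squares, with the group mean as a black tick. None of these genes has overlapping groups; Cidec, Adipoq, Cyp2e1, Retn and Acvr1c lie below 1 CPM in every Flox library.

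The white adipocyte markers that rose have roles in differentiation, the lipid droplet and hormone signalling. Windows of 250 bases before the start of Adipoq and Cidec, the clearest fat cell genes here, and of Cited4, the deleted gene, are taken from RefSeq (GRCm38.p6), 5′ to 3′ on each gene's strand. Capitals mark the CCAAT box, a common promoter element, read on either strand (CCAAT or ATTGG). They lie at chr16:23146286-23146535 (plus strand), chr6:113435761-113436010 (minus strand) and chr4:120666313-120666562 (plus strand).
Adipoq: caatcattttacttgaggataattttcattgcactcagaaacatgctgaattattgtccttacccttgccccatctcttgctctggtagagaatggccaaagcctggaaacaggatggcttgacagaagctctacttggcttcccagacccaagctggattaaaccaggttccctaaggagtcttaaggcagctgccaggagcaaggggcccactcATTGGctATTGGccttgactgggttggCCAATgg
Cidec: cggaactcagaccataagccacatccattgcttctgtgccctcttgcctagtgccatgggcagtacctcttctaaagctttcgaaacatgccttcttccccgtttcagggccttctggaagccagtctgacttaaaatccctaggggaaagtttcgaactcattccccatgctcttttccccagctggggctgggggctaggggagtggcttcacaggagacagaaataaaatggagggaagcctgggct
Cited4: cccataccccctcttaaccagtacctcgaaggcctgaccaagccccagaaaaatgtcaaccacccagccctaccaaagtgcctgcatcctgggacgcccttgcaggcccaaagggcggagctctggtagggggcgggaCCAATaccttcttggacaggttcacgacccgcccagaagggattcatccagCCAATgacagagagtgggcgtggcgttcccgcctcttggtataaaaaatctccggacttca
The Adipoq window holds 3 CCAAT boxes, the Cited4 window 2 and this Cidec window 0. Of 14365 promoter windows of this length for the genes tested, 34.7% held the box. The passing genes had 18 such windows, and 5 of these held it. By gene, 14 passing genes matched a window and 5 of them held the box. The C/EBP motif TTGCNNAA, searched on both strands, was found in 7.59% of the 14365 windows. Among the 18 windows of passing genes it was in 1, that of Cidec at an alternative start that is not printed. The letters of both motifs can overlap, and no match says only that these letters are not in these windows.

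Cebpa, the gene of C/EBPα, which drives fat cell maturation, stood at 6.32, 6.46 and 6.06 CPM in Flox and 16.3, 15 and 21.4 in KO. The Flox values were close together and every KO value was more than 2 times the highest of them; the log2 difference was 1.48 ± 0.21 (edgeR, adjusted p = 0.0158). Cidec, whose protein fuses lipid droplets, stood at 0.590, 0.210 and 0.0505 CPM in Flox against 8.25, 9.94 and 16.3 in KO. Its log2 difference was 5.36 ± 0.57 (edgeR, adjusted p = 0.00370, a value shared with Cyp2e1).

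Adipoq encodes adiponectin, a hormone made by fat cells, and rose from 0.413, 0.158 and 0.202 CPM to 6.13, 10.3 and 16.4 CPM (log2 difference 5.40 ± 0.66, adjusted p = 0.00900). Retn, which encodes the fat cell hormone resistin in mice, had 1 count in each Flox library and 13, 53 and 33 in the KO libraries. Its ratio was 28.3 (exact 95% interval 9.42 to 140, counting error only). Acvr1c, the receptor ALK7 of fat cells, had 0, 1 and 0 counts in Flox and 27, 17 and 47 in KO, a ratio of 78.1 (13.7 to 3120, counting error only). Both passed, at adjusted p = 0.0226 for Retn and 0.0459 for Acvr1c (edgeR), but Flox levels this low leave the size of the difference poorly known.

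Among lipid and sulfur enzymes, Scd1, which puts the double bond into newly made fatty acids, rose from 25.2, 18.1 and 15.8 CPM to 151, 64.1 and 173 CPM. Its log2 difference was 2.71 ± 0.37 (edgeR, adjusted p = 0.0226), and KO replicate 2 was the lowest of the 3. Cyp2e1, a cytochrome P450 of liver and fat, rose from 0.354, 0.893 and 0.303 to 15, 11.5 and 18.9 CPM. Cdo1, the first enzyme of cysteine breakdown, rose from 1.83, 1.79 and 1.06 to 10.9, 9.18 and 20.2 CPM. Of the signalling genes, Prkar2b, which holds protein kinase A inactive until cyclic AMP binds, rose from 2.24, 0.788 and 1.06 to 11.3, 8.24 and 21.7 CPM. Clstn3, a calsyntenin, rose from 0.531, 0.473 and 0.353 to 2.46, 2.1 and 5.93 CPM. For Scd1, Cdo1, Prkar2b and Clstn3, KO replicate 3 was the highest library, as it was for Adipoq and Cidec.

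Other genes of white fat were as far apart but did not pass. Cfd, the fat cell protease adipsin, stood at 1.30, 0.893 and 0.404 CPM in Flox and 22.6, 36.6 and 44.7 in KO (adjusted p = 0.0826, edgeR). Plin1, the coat protein of fat droplets, stood at 1.30, 0.210 and 0 against 10.9, 5.06 and 12.4 CPM (adjusted p = 0.0826). Car3, a carbonic anhydrase abundant in fat, stood at 2.89, 2.57 and 0.606 against 58.6, 56.0 and 109 CPM (adjusted p = 0.0664). Pck1, which makes glycerol backbones in fat cells, stood at 2.42, 0.210 and 0.151 against 21.2, 13.4 and 46.0 CPM. Each of these 4 genes had KO libraries wholly above the Flox libraries. Of 21 white adipocyte markers tested, 5 rose (0.105% of all genes) and none fell. KO was wholly above Flox for 11 (10.4% of all genes) and wholly below for 1 (7.93%). There were 15 above 0 and 6 below, and the median log2 difference was 0.90 against 0.00 for all genes.

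Not all fat-associated genes were apart. Fabp4, a fatty acid carrier also made by heart endothelium, stood at 710, 492 and 513 CPM in Flox and 407, 486 and 512 in KO. Pparg, the gene of PPARγ, stood at 11, 9.14 and 7.87 against 8.30, 7.92 and 8.90 CPM. The lipases Pnpla2 and Lipe had log2 differences of -0.18 ± 0.15 and -0.18 ± 0.21. Summed over the markers the level was 1130 to 1380 CPM in Flox and 1140 to 1350 in KO, since Fabp4, Pnpla2 and Plin4 carry most of it.

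Ucp1, the uncoupling protein that defines brown fat, stood at 3.90, 0.158 and 0 CPM in Flox and 22.8, 33.9 and 97.0 CPM in KO, with a log2 difference of 5.32 ± 1.18 (edgeR, adjusted p = 0.165). In the 6 exercise-label libraries it was at 0 in 5 and at 0.0516 CPM in KO replicate 2. Dio2, which activates thyroid hormone in brown fat, stood at 1.18, 0.473 and 1.51 against 4.97, 1.88 and 5.20 CPM. Adrb3, the beta receptor of fat cells, stood at 0.472, 0 and 0 against 1.30, 1.30 and 2.83 CPM. The genes named here all lay above 0. Of 10 brown fat genes tested, 4 were above 0 and 6 below, and none passed. KO was wholly above Flox for 4 (10.4% of all genes) and wholly below for 1 (7.93%). The median log2 difference was -0.15 (0.03 with library totals only).

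Among genes of lipid synthesis beside Scd1, none passed. Fasn, the fatty acid synthase, stood at 31.3, 31.4 and 27.9 CPM in Flox and 143, 46.1 and 90.0 in KO (log2 difference 1.62 ± 0.31, edgeR adjusted p = 0.0826). Acaca, the carboxylase before it, stood at 14.4, 14.6 and 12.6 against 31.8, 17.6 and 25.5 CPM, and the elongase Elovl6 at 1.53, 0.998 and 0.757 against 4.68, 3.09 and 10.8 CPM. Their regulator Srebf1 overlapped, at 40.3, 29.6 and 28.4 against 40.8, 30.1 and 30.8 CPM. Dgat2 and Mlxipl lay wholly below Flox, with log2 differences of -0.43 ± 0.17 and -0.29 ± 0.11. Of 17 lipogenic genes, Scd1 alone rose. KO was wholly above Flox for 7 (10.4% of all genes) and wholly below for 2 (7.93%), and the median was 0.05.

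How far the fat genes go with atrial RNA was not tested beyond the covariate below. Under the sedentary label, the atrial and white adipocyte means rose in the same order over KO replicates 1, 2 and 3. KO replicate 3 had the highest mean of both. Flox replicate 3 had the highest atrial mean of the Flox libraries (5.61 log2 CPM) and the lowest white adipocyte mean (1.73). Under the exercise label, Flox replicate 2 and KO replicate 1 held right atrial RNA (Bmp10 at 560 and 362 CPM) with Adipoq at 0.210 and 0.670 CPM and Cidec at 0.263 and 0.876 CPM. KO replicate 3 of that label also had a high atrial mean (5.34 log2 CPM), with a white adipocyte mean of 2.27. The highest white adipocyte mean under that label was 2.60, in Flox replicate 3, where the atrial mean was 3.20. With the mean of the atrial markers as a covariate, 3 of the 19 genes passed (Cited4, Cidec and Cyp2e1) and all 19 kept their direction. Adipoq then stood at 5.23 ± 0.90 (5.40 ± 0.66 without the covariate) and Cebpa at 1.14 ± 0.24 (1.48 ± 0.21 without it). With the covariate their adjusted p was 0.217 and 0.367 (edgeR). How much fat tissue was attached to each heart was not measured, and its part in the result was not tested.

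Genes with roles outside fat passed too. Phlda3, a p53 target whose protein holds back AKT at the membrane, rose from 12.8, 11.9 and 11.4 CPM to 23.3, 19.5 and 26.8 CPM (log2 difference 0.95 ± 0.12, edgeR adjusted p = 0.00900). It is on chromosome 1 at 135766119 to 135769136. Phlda3 was the 1 passing member of 18 p53 targets, whose median was 0.14. Cdkn1a, the cell cycle inhibitor p21, stood at 17.1, 8.98 and 12.9 CPM in Flox and 37.2, 17.2 and 16.1 in KO, with overlap. Mdm2, the p53 ubiquitin ligase, stood at 45.8, 50.1 and 48.9 against 57.1, 55.1 and 46.2 CPM.

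Of the microtubule genes, 1 rose and 1 fell. Map1b, a microtubule-associated protein best known in neurons, rose from 13.8, 10.4 and 11.2 CPM to 22.1, 22.7 and 23.4 CPM (log2 difference 0.95 ± 0.12, edgeR adjusted p = 0.00900). Its relative Map1a stood at 8.32, 8.82 and 9.34 against 16.8, 11.7 and 9.86 CPM. Ttll1, part of a tubulin polyglutamylase, fell from 47.7, 61.3 and 53.8 CPM to 31.6, 24.7 and 29.4 CPM (log2 difference -0.93 ± 0.13, adjusted p = 0.01565). Agtpbp1, which trims such glutamate chains, stood at 87.3, 130 and 106 against 89.2, 68.4 and 61.4 CPM, with overlap. Of 16 genes of tubulin glutamylation and microtubules tested, Map1b rose, Ttll1 fell and the median was -0.15 (0.03 with library totals only).

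Further passing genes encode a membrane pump and proteins of the vessel wall or matrix. Atp2b4, a calcium pump of the plasma membrane, rose from 30.1, 33.2 and 29.4 to 42.8, 52.3 and 51.0 CPM (log2 difference 0.66 ± 0.11, edgeR adjusted p = 0.0495). Myl9, the myosin light chain of smooth muscle, rose from 38.3, 18.5 and 28.9 to 81.7, 94.6 and 158 CPM (1.97 ± 0.31, adjusted p = 0.0487). Serpinf1, the secreted protein PEDF, rose from 19.0, 20.5 and 17.7 to 30.7, 33.9 and 42.4 CPM (0.91 ± 0.16, adjusted p = 0.0487). Atp2b4, Myl9 and Serpinf1 are near the limit of 0.05, and none of the 3 passed once vector class was a term (adjusted p = 0.0723, 0.0522 and 0.0707). The loss was not particular to them. Acvr1c, Cdo1 and Clstn3 did not pass with that term either (edgeR, adjusted p = 0.0707, 0.0612 and 0.0522).

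Genes just beyond the threshold named further groups. Apoc1, an apolipoprotein, stood at 0.472, 0.210 and 0.303 CPM in Flox and 1.30, 3.18 and 6.98 in KO (edgeR, adjusted p = 0.0554). Fbln5, an elastic fibre protein, stood at 23.9, 22.3 and 21.2 against 33.3, 31.4 and 37.9 CPM (adjusted p = 0.0566). Il15, a cytokine of muscle, stood at 27.6, 33.3 and 23.5 against 15.8, 15.7 and 15.8 CPM (adjusted p = 0.0664). The 3 KO values of Il15 were nearly equal and all below Flox. Bckdhb, a subunit of the enzyme that commits branched-chain amino acids to breakdown, stood at 47.7, 60.5 and 53.5 against 37.2, 31.6 and 35.2 CPM (adjusted p = 0.0597). Fitm1, a lipid droplet protein of muscle, stood at 124, 108 and 98.1 against 68.1, 67.4 and 70.0 CPM (adjusted p = 0.0769).

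Energy metabolism genes of the cardiomyocyte lay below Flox as whole lists, by small amounts and with no single gene passing. Fatty acid uptake and oxidation had all 29 members below 0, with a median log2 difference of -0.43, and 17 had KO wholly below Flox (7.93% of all genes). The list mean was 8.49, 8.55 and 8.44 log2 CPM in Flox and 8.36, 7.94 and 7.85 in KO. Fabp3, the fatty acid carrier of heart muscle, stood at 3215, 2754 and 2794 CPM in Flox and 2222, 1985 and 2050 in KO (log2 difference -0.49 ± 0.16, edgeR adjusted p = 0.232). Hadh, a dehydrogenase of beta oxidation, stood at 405, 463 and 406 against 357, 288 and 286 CPM. Etfa, which passes its electrons on, stood at 506, 568 and 495 against 453, 355 and 334 CPM. In Hadh and Etfa, as in the list mean, KO replicate 1 was nearest to Flox.

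Ketone and branched-chain amino acid breakdown had all 21 members below 0, a median of -0.42 and 11 members wholly below Flox. Bckdha, the partner subunit of Bckdhb, stood at 270, 257 and 242 CPM in Flox and 182, 169 and 169 in KO (edgeR, adjusted p = 0.161). Mccc2, of leucine breakdown, stood at 63.1, 63.6 and 56.2 against 47.8, 42.5 and 42.2 CPM. Pcca, which takes propionyl groups on towards the citric acid cycle, stood at 65.9, 72.9 and 68.8 against 61.5, 49.5 and 44.5 CPM. For the cycle itself and pyruvate dehydrogenase, 27 of 28 members were below 0, 12 wholly below Flox, and the median was -0.28. Idh2, the mitochondrial isocitrate dehydrogenase, stood at 1728, 1792 and 1491 against 1213, 1123 and 1072 CPM (adjusted p = 0.141).

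Subunits of every respiratory complex were on the same side. Complex I had 36 of 36 members below 0 (median -0.31, 18 wholly below Flox), complexes II and III 14 of 14 (-0.34, 8), complex IV 13 of 15 (-0.31, 5) and ATP synthase 16 of 16 (-0.29, 9). The median of complex I was -0.19 under the exercise label, where 33 of 36 members were below 0. Ndufs6, of the electron input module, stood at 315, 284 and 231 CPM in Flox and 180, 193 and 211 in KO. Cox7a1, the muscle form of a complex IV subunit, stood at 689, 583 and 518 against 359, 388 and 465 CPM. The order among KO libraries was the reverse of that for fatty acid oxidation: the complex I mean was 7.65, 7.74 and 7.92 log2 CPM, lowest in replicate 1, against 8.20, 8.09 and 7.95 in Flox.

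Of the mitochondrially encoded genes, 12 of 13 were below 0 (median -0.28, 7 wholly below Flox). mt-Nd6, the one protein gene on the light strand, stood at 3458, 4306 and 3500 CPM in Flox and 3080, 2560 and 2114 in KO. mt-Nd4l was the exception, at 535, 779 and 656 against 906, 874 and 760 CPM. Mitochondrial ribosomal proteins had 72 of 76 members below 0 with a smaller median of -0.19. Regulators of mitochondrial biogenesis had 16 of 18 below 0 (median -0.18) and none wholly apart; Ppargc1a, their best known member, stood at 75.9, 105 and 85.5 against 84.2, 63.9 and 73.9 CPM. Glycolysis had 19 of 24 below 0 (median -0.13, but 0.04 with library totals only). The median of all genes was 0.18 with library totals only, about as large as the shortfall of the ribosomal and biogenesis lists.

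Contractile genes had 24 of 25 members below 0 (median -0.33, 11 wholly below Flox), and none passed. Myl2 stood at 7427, 7532 and 6628 CPM in Flox and 4906, 3554 and 3647 in KO (log2 difference -0.83 ± 0.19, edgeR adjusted p = 0.0994). Myl3, the essential light chain of ventricle, stood at 5131, 4236 and 3908 against 3294, 2421 and 1950 CPM. Mb, myoglobin, stood at 10100, 9191 and 9017 against 7018, 6846 and 7057 CPM. Ventricular markers had 12 of 13 members below 0 (median -0.49) and atrial markers 18 of 19 above 0 (median 1.09), and the summed ventricular level was 15800 to 18100 CPM in Flox and 8970 to 13400 in KO. Over the KO libraries the summed atrial level was lowest in replicate 1 and highest in replicate 3, as were the complex I, complex IV and ATP synthase means, whereas the fatty acid and ventricular means had the opposite order. The part of atrial RNA in these lists was not tested beyond the covariate. With the atrial covariate the medians were -0.22 for fatty acid oxidation, -0.15 for complex I and -0.18 for contractile genes, and with library totals only they were -0.26, -0.14 and -0.15.

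**Figure D3:**
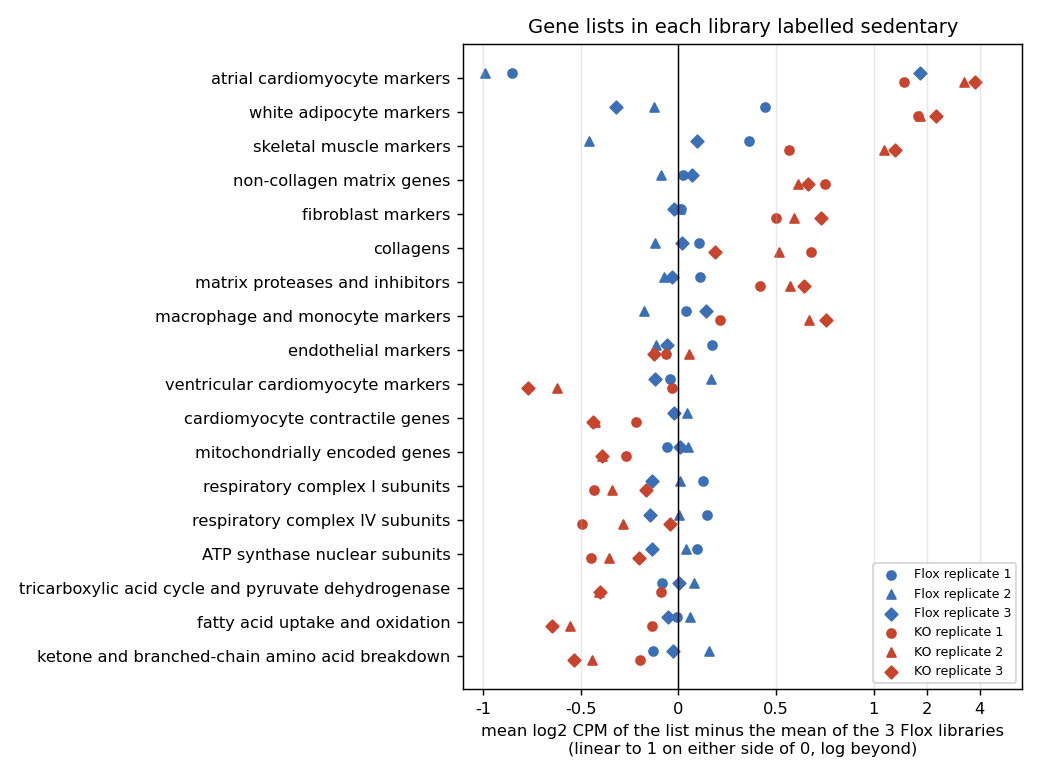
Mean log2 CPM of 18 gene lists in each sedentary-label library, less the mean of the 3 Flox libraries (linear to 1 on either side of 0, log beyond), with circles, triangles and diamonds for replicates 1, 2 and 3. Fat, matrix and fibroblast lists have all 3 KO libraries above Flox; complex I, complex IV and ATP synthase are lowest in KO replicate 1, and ventricular, citric acid cycle and fatty acid lists in KO replicates 2 and 3.

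Calcium cycling genes of the cardiomyocyte had 16 of 20 members below 0 (median -0.19), with Atp2b4 the single gene that passed, upward. The scaling moved the median of all genes by about as much (0.18 with library totals only). Cacna1c, the pore of the L-type calcium channel, stood at 318, 370 and 318 CPM in Flox and 256, 216 and 144 in KO (edgeR, adjusted p = 0.154). Pln, phospholamban, stood at 4069, 5281 and 4546 against 4191, 2949 and 2771 CPM, with overlap through KO replicate 1. Among stretch-responsive genes, Ankrd1, a repeat protein of the sarcomere and nucleus, stood at 593, 793 and 801 against 1209, 1209 and 1719 CPM (adjusted p = 0.0826). Nppb, the B-type natriuretic peptide, stood at 138, 106 and 177 against 239, 186 and 611 CPM, and that list had 13 of 21 members above 0 (median 0.31).

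Matrix and fibroblast genes lay above Flox. Non-collagen matrix genes had 26 of 28 members above 0, 21 with KO wholly above Flox (10.4% of all genes), and a median of 0.64. Fibroblast markers had 18 of 19 above 0 (12 wholly above, median 0.66), collagens 17 of 20 (9, 0.40), and matrix proteases and inhibitors 13 of 17 (11, 0.56). Serpinf1 was the single one of these that passed. Mgp, which keeps vessel walls from calcifying, stood at 115, 120 and 130 CPM in Flox and 177, 254 and 370 in KO (edgeR, adjusted p = 0.108). Bgn, a small proteoglycan, stood at 175, 192 and 206 against 306, 339 and 364 CPM. Adamts15, a protease of proteoglycans, stood at 7.67, 5.51 and 8.73 against 15.8, 16.3 and 22.9 CPM (adjusted p = 0.0826).

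The cell markers beside them were less clear. Pdgfra, which marks cardiac fibroblasts, stood at 35.7, 43.9 and 39.1 CPM in Flox and 42.2, 52.5 and 54.0 in KO, with overlap. Tcf21, a fibroblast transcription factor, stood at 7.56, 8.98 and 9.04 against 10.4, 14.4 and 20.8 CPM. Summed over 19 fibroblast markers the level was 2400 to 2600 CPM in Flox and 3080 to 4260 in KO. Endothelial markers had a median of -0.14 (7 of 21 above 0), which turned to 0.04 with library totals only, and Pecam1 overlapped, at 197, 150 and 178 against 166, 198 and 177 CPM. Macrophage markers had 17 of 18 above 0 (median 0.48, 5 wholly above). The atrial covariate moved the medians to 0.37 for non-collagen matrix, 0.35 for fibroblasts and -0.05 for macrophages, and their dependence on how much atrium a heart held was not tested further.

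Smooth muscle genes had 8 of 18 members above 0 and a median of -0.01 (0.16 with library totals only, 0.21 with the atrial covariate), and Myl9 alone passed. Cnn1, calponin, stood at 3.07, 1.57 and 1.77 CPM in Flox and 20.5, 6.49 and 9.45 in KO (edgeR, adjusted p = 0.0769). Acta2, smooth muscle actin, stood at 140, 68.9 and 85.2 against 419, 149 and 162 CPM. Myh11, which defines the cell type, overlapped at 69.1, 38.5 and 45.0 against 157, 35.9 and 65.6 CPM. KO replicate 1 was the highest library for Cnn1, Acta2 and Myh11, and KO replicate 3 for Myl9. The pericyte gene Rgs5 stood wholly below Flox, at 679, 620 and 561 against 548, 496 and 341 CPM.

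Growth and stress genes were mixed. Igf1, the growth factor, stood at 13.9, 12.6 and 18.3 CPM in Flox and 26, 28.6 and 34.6 in KO (log2 difference 0.99 ± 0.20, edgeR adjusted p = 0.0826), while its pathway had 6 of 22 members above 0 (median -0.05, but 0.12 with library totals only). Serine synthesis genes were apart at low levels: Phgdh, its first enzyme, stood at 1.06, 1.31 and 1.41 against 2.12, 2.60 and 2.88 CPM, and Psat1, the next, at 2.07, 2.63 and 3.03 against 4.15, 4.52 and 5.62 CPM. Ucp2, an uncoupling protein outside brown fat, stood at 53.3, 84.0 and 75.7 against 137, 138 and 146 CPM (adjusted p = 0.0994).

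Immediate early genes were highest in a single KO heart. Fos stood at 3.19, 2.68 and 5.70 CPM in Flox and 6.27, 3.49 and 87.8 in KO, so that KO replicate 3 alone was high. The list had 18 of 19 members above 0 (median 0.78) but 1 wholly above Flox. Mesothelial markers had 13 of 13 above 0 (median 1.47), none wholly above, and the median turned to -1.20 with the atrial covariate. Markers of skeletal muscle had 7 of 9 above 0 and of Schwann cells and nerve 9 of 10, with 3 wholly above Flox in each.

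Lists with no passing member and small medians were interferon response (12 of 22 above 0, median 0.01), heat shock (8 of 16, 0.01), endoplasmic reticulum chaperones (10 of 16, 0.03), oxidative stress defence (12 of 23, 0.01), core clock (5 of 19, -0.19) and proliferation (16 of 20, 0.11). With the atrial covariate 4 of these medians changed sign, to -0.13 for interferon response, -0.07 for endoplasmic reticulum chaperones, 0.08 for core clock and -0.33 for proliferation. Proteasome subunits had 24 of 31 below 0 (median -0.09, but 0.09 with library totals only) and cytosolic ribosomal proteins 61 of 74 above 0 (median 0.10, but -0.01 with the atrial covariate). By transcript class, 11.1% of 13536 protein-coding genes had KO wholly above and 7.65% wholly below Flox, whereas for 342 lincRNA genes the shares were 3.22% and 10.2%.

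KO replicate 1 stood apart from replicates 2 and 3. Without it, 479 of 15591 genes passed (3.07%), 244 higher (1.57%) and 235 lower (1.51%), and all 19 genes above were among them. Fewer of the 19 passed when another sedentary-label library was left out. Of these genes, 9, 2 and 4 passed without Flox replicates 1, 2 and 3, and 11 and 7 without KO replicates 2 and 3. Without KO replicate 1, 12 of 29 members of the fatty acid list fell and the median went from -0.43 to -0.60. Of ketone and branched-chain amino acid breakdown 6 of 21 then fell. Ventricular markers went from a median of -0.49 to -0.75 with 5 passing, fibroblast markers to 0.70 with 5 passing upward, and white adipocyte markers to 0.92 with 9 passing upward. Hadha, the trifunctional protein of beta oxidation, showed the pattern, at 1181, 1457 and 1327 CPM in Flox and 1226, 825 and 749 in KO. Respiratory complexes had no passing member either way. KO replicate 1 also held the least atrial RNA of the KO hearts, and in the fit that weights libraries by their scatter it had the lowest weight of all 12 (0.37). It was also the only KO library here with many counts of the vector entry described next. Leaving it out therefore makes the groups less alike in atrial RNA and in that entry, and their part was not tested.

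Libraries also split by an entry named for a cloning vector, pJG4-5. It had 0, 14311 and 15960 counts in Flox and 16420, 1 and 1 in KO, so both groups hold both classes, unequally. Over all 12 libraries 52 genes (0.342%) differed with this class, and none of the 19 genes was among them. With the class as a term, 10 of the 19 passed. What the class stands for is not given in the labels, and its part in the results was not tested further.

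The same comparison in the hearts labelled exercise gave Cited4 as the single passing gene (0.00657% of those tested), at 23.1, 13.7 and 23.9 CPM in Flox and 0.155, 0 and 0 CPM in KO. Adipoq and Cebpa overlapped there: Adipoq stood at 0.342, 0.210 and 1.55 CPM in Flox and 0.670, 0.516 and 0.747 in KO, and Cebpa at 6.79, 13 and 7.92 against 7.88, 7.69 and 8.91. Cidec lay above 0 there too, by less than under the sedentary label, and did not pass. Of 21 white adipocyte markers, 12 were above 0 and 9 below. Scd1 stood at 16.4, 17.6 and 21.1 against 21, 14.7 and 27.2 CPM. Map1b stood at 12.8, 15.3 and 13.6 against 15.3, 12.6 and 14.7 CPM. Of the 19 genes, 11 had the same direction under both labels. The share of all genes that kept their direction was not counted, so these 11 have no baseline to be set against. In the exercise-label comparison alone, 48.8% of all genes tested were above 0, which is a different measure.

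Phlda3 and Ttll1 kept their groups apart in the same direction under the exercise label, where 14.8% of all genes did not overlap (7.61% higher, 7.23% lower). Phlda3 stood at 11.3, 9.62 and 11.3 CPM in Flox and 15.3, 14.2 and 15 in KO (log2 difference 0.47 ± 0.13). Ttll1 stood at 45.8, 46.6 and 57.7 against 41.0, 40.6 and 36.0 CPM (-0.35 ± 0.13). Neither passed there (edgeR, adjusted p = 0.601 for both). The matrix, fibroblast and white adipocyte lists had exercise-label medians of -0.04, -0.03 and 0.04, and fatty acid oxidation -0.04.

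The difference between both comparisons was tested as an interaction, and no gene passed (edgeR, 0.0% of 15226; 1505 genes or 9.88% at an unadjusted p under 0.05; smallest adjusted p = 0.279; DESeq2 called 50). Adipoq had an interaction of 5.52 ± 0.94 and Cidec of 4.38 ± 0.83 on the log2 scale, both at adjusted p = 0.279, and Phlda3 had one of 0.48 ± 0.18 at 0.454. A call under the sedentary label alone therefore does not show a difference between the labels.

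**Figure D4:**
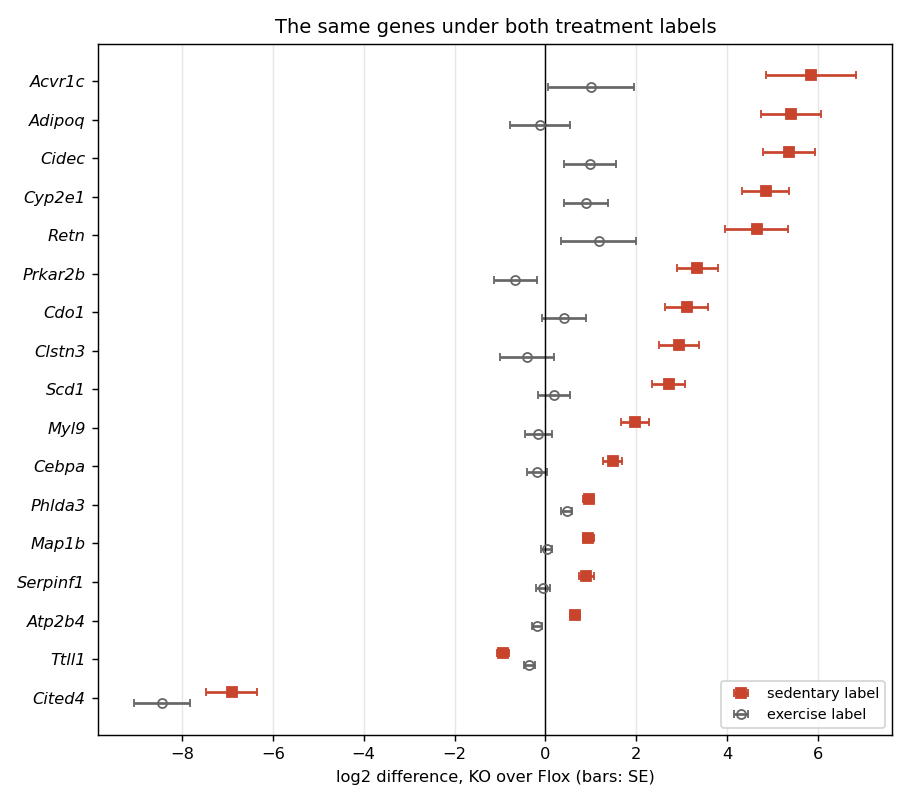
Log2 difference KO over Flox (bars: SE, 3 libraries per group) of 17 passing genes under the sedentary label (squares) and the exercise label (open circles). Cited4 lies far below 0 under both labels, and the fat cell genes Adipoq, Cebpa and Scd1 lie above 0 under the sedentary label and near 0 under the exercise label. Cidec lies above 0 under both labels.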

How the data were processed

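Total RNA of whole mouse hearts was depleted of ribosomal RNA (RiboZero) and sequenced, per the labels' protocols. The authors deposited 1 table of estimated counts by gene symbol, made with Salmon and FastQC, per the submitters' processing notes; these name the builds mm9 and mm10 without a role. The sources used here give no annotation release, strand setting or version. Over genes with a count in any library, between 21.6% and 26.4% of a library's values, its zeros included, were not whole. Values were rounded to whole numbers. Salmon divides reads among near-identical sequences, so paralogs, mitochondrial genes with nuclear copies and antisense pairs are uncertain to that extent.

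Of 55874 entries, 1696 named vectors, phages, adaptors or linkers (at most 0.186% of a library) and were left out. Symbols were matched to GENCODE names on GRCm38 for 52529 of the other 54178, and positions come from there. Library totals of 17465401 to 20467260 counts set the precision; intervals and floors cover counting error only (exact 95%).

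The tests were run in edgeR 4.0.16 (R 4.3.3), with filterByExpr, TMM, a cell-means model over all 12 libraries, so that 4 groups of 3 share an estimate of spread, robust glmQLFit, glmQLFTest, and Benjamini-Hochberg adjustment over all genes at 0.05. The script was tested on simulated data. Each standard error is the log2 difference over the root of its F. Alternatives used limma 3.58.1, DESeq2 1.42.0, other scalings, filters, covariates and left-out libraries; the vector class term was added after seeing the data. Lists were described by counts and medians, with no set test.

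The comparison, lists and rules were chosen with earlier results of these data known. Named genes were Cited4, the passing genes, up to 8 per direction next by p (mean of at least 1 CPM) or largest and not overlapping (at least 5 CPM), and up to 6 per list by p. Dgat2, Fabp4, Hadha, Lipe, Mdm2, Mlxipl, Plin4, Pnpla2, Pparg, Rgs5, Srebf1 and mt-Nd4l fall outside this rule and were chosen after their values were seen. Results for 2 of the passing genes are not reported here.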

Additional observations from a re-analysis of the deposited data

Results flagged for a closer look

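Entries named for vectors were left out of every comparison, and some of them held signal that differed between libraries. The entry named phagemid vector pBK-CMV had at least 567 counts in all 6 KO libraries and at most 8 in all 6 Flox libraries, under both treatment labels. The entry named cloning vector pJG4-5 reached 16420 counts in KO replicate 1 of the sedentary label and was at 0 or 1 count in Flox replicate 1 and KO replicates 2 and 3. The source of these counts was not tested.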

How the results depend on the processing

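The count of 19 sedentary-label genes depended on the model. It was 100 with library totals only, 120 with no filter, 39 with the 6 libraries alone, 3 with the atrial covariate, 394 with DESeq2 (257 higher, 137 lower) and 1404 with limma voom and quality weights (770 higher, 634 lower). Same-numbered replicates did not pair the samples (correlations of deviations -0.00369, -0.0927 and 0.137), and with the replicate number as a block 37 genes passed (28 higher, 9 lower). Leaving out 1 library gave 2 to 479 genes: 11, 2 and 6 without Flox replicates 1, 2 and 3, 479, 15 and 7 without KO replicates 1, 2 and 3, and 13 to 43 without an exercise-label library (35 and 43 without KO replicates 2 and 3). The other settings (RLE factors, mitochondrial genes left out, a mean of at least 1 CPM, no robust estimation, vector class) gave 13 to 20. The 19 genes kept their direction in every setting that tested them, which for left-out libraries follows from groups that do not overlap; a mean of at least 1 CPM left Retn and Acvr1c untested. For the exercise label, 1 gene passed; no filter gave 4, DESeq2 10, limma voom 0 and leaving out 1 library 1 to 2. For the interaction, 0 passed; no filter gave 1, DESeq2 50 and leaving out 1 library 0 to 2. Among genes that did not pass, Nppa and Myl7 turned to -0.73 and -1.55 with the atrial covariate. Both are atrial markers, so the covariate holds their own levels and their turn is no separate result. With vector class as a term, Myl7 went from 2.936 to 0.02675 and Nppa from 2.762 to 1.315. Pparg turned to 0.0586 with the atrial covariate and 0.0209 with library totals only. Leaving out 1 library took Myh11 from -0.0163 to 1.13, Pecam1 from -0.0541 to 0.137 and Srebf1 from -0.12 to 0.22 (lowest and highest log2 difference). The causes were not tested.

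List medians were moved most by library totals only (28 lists) and the atrial covariate (23 lists). Each group had 3 libraries, and 2 of 3 KO libraries held the most atrial RNA. Genes under about 1 CPM rest on few counts.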
